A study of Homo sapiens with 12 samples.

Results

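The LINC-named noncoding RNAs were the rows of the count table whose symbol is LINC followed by digits and whose raw counts summed to at least 100 over the 12 libraries. Of 59385 gene names, 2134 carried such a symbol, 1160 of them had at least 1 count, and 284 reached the sum and were kept. The members were thus selected on their symbol and their summed raw counts, which ran from 102 to 19073 with a median of 349. Just inside the sum were LINC02266 with 102 counts and LINC02269 with 103, and just outside it LINC02232 and LINC02289 with 99 each. All 284 members passed the filter on low counts, as did 30 of the 1850 LINC-named rows under the sum, which are not members. A member with a small sum can be in the set through 1 group alone, so counts of calls over the members describe the set as chosen. Both lines used were derived from HEK293T, an immortalised line of human embryonic kidney origin. Each was a stable single clone with a Dox-inducible shRNA, either a non-targeting shRNA (shCtrl) or an shRNA against PRRC2B (shPRRC2B), an RNA-binding protein linked to translation, and both were treated with Dox for 36 h. From each line, 3 biological replicates were taken of total RNA and of polysome-associated RNA, the latter from the pooled sucrose gradient fractions 6 to 10, after nuclei had been pelleted. Since each shRNA was sequenced in 1 clone, a difference between the shRNAs cannot be told apart from a difference between the clones.

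The symbol LINC marks long intergenic noncoding RNAs that were named by number before a function was known. Such RNAs are transcribed by RNA polymerase II, and many are capped, spliced and polyadenylated like mRNAs. Some stay in the nucleus, where they cannot meet a ribosome, while others are exported and can be found on ribosomes. Short open reading frames (ORFs) of a few of the latter are known to be translated into small proteins, and several genes lost their LINC symbol when that was shown. RNA in heavy gradient fractions is usually bound by several ribosomes, though other large particles can sediment there as well.

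Annotation was taken from GENCODE 44 on GRCh38. It held 259 of the members under the same name and 23 more under a newer symbol, such as SLC12A2-DT for LINC01184 and LASP1NB for LINC00672. Of the members matched, 272 were lncRNA genes, 8 were pseudogenes and 2 were listed as protein-coding. Canonical transcripts of the 282 members with a length had a median of 1535 nt (160 to 21234 nt), against 3035 nt over the 15786 genes tested with a length. Exons of 121 members overlapped those of another gene, by at least 50% of their bases in 9 members, and 32 members started within 1000 bp of a protein-coding gene on the other strand. The counting options that are stated set no strand, so reads of a member and of a gene that overlaps its exons could not be told apart.

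Before the values, the longest ATG-started ORFs are given for 4 abundant members, as examples of the reading frames that members with high and with low polysome ratios hold. LINC01184 (84 codons before the stop) and LINC02609 (86 codons) were high in polysome RNA, and LINC00342 and LINC00641 (60 codons each) were low. Only short ORFs could be chosen for printing. This left out abundant members such as LINC02381 (179 codons), LINC00467 (205 codons) and LINC00205 (135 codons). The sequences are those of the canonical GENCODE 44 transcripts, 5′ to 3′, with the start and stop codon in capitals. The low examples have the shorter ORFs, unlike the classes as a whole (medians of 98 codons for members lower and 71 for those higher in polysome RNA of both lines). An ORF found in this way is a stretch of letters, and whether it is translated was not measured.
LINC01184: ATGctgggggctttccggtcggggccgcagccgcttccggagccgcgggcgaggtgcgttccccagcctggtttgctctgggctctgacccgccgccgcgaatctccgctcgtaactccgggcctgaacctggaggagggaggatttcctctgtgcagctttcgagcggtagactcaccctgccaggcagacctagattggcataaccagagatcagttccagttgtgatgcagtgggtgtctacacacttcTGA
LINC02609: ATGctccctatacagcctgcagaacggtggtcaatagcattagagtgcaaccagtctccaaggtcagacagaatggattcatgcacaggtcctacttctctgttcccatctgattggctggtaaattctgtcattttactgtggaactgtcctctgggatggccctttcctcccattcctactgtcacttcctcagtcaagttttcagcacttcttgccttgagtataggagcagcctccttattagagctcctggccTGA
LINC00342: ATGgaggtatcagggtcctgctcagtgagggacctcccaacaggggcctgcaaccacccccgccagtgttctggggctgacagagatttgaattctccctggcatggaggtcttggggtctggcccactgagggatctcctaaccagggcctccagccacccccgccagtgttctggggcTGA
LINC00641: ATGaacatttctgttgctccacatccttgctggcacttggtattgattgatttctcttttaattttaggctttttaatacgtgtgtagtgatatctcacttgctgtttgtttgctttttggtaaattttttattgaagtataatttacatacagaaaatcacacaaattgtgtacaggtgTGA

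Promoter sequences are given for LINC00355 and LINC00668, which had 0 counts in every shCtrl library and were present in every shPRRC2B library. They come from RefSeq on GRCh38.p14, run from 250 bases before to 50 bases after the annotated start, and have each CG dinucleotide in capitals. The LINC00355 window (chr13:64075962-64076261, minus strand) held 4 CG dinucleotides and that of LINC00668 (chr18:6929820-6930119, minus strand) held 20. Promoters were found for 191 members, with a median of 17 CG dinucleotides, against 14 over all 35116 promoters of the same length. The motif TATAAA, on either strand, was in 11.5% of both.
LINC00355: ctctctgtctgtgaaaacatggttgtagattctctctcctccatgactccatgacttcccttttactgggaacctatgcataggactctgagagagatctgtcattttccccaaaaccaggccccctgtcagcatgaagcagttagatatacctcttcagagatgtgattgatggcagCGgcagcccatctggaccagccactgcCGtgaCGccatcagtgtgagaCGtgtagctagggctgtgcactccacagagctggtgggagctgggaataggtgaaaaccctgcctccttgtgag
LINC00668: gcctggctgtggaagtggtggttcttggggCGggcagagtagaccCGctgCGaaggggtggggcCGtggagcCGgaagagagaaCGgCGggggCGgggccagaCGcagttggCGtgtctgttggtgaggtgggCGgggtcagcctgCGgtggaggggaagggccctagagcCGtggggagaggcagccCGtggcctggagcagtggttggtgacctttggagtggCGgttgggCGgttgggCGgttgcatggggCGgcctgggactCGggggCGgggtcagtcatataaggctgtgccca

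Library totals lay between 9855734 and 20837542 counts, and PRRC2B itself averaged 281 CPM in shCtrl and 100.3 CPM in shPRRC2B total RNA. Levels are given as CPM (library-size scaled counts) after TMM scaling over the 12 libraries, and differences as log2 ratios from edgeR's quasi-likelihood model, fitted to all 18166 genes tested. Calls needed a Benjamini-Hochberg adjusted p below 0.05 together with a log2 difference beyond 0.5 in size, which are the thresholds of the study. Of the markers chosen for this line, KRT8, KRT18, PAX2, EYA1, NEFM and NEFL were present, while LHX1 summed to 26 counts over all libraries. Some of them differed between the clones, with mean total RNA levels in shCtrl and shPRRC2B cells of 90.1 and 20.6 CPM for KRT8, 286 and 96.5 CPM for NEFM and 175 and 87.5 CPM for NEFL, and their part in the results was not tested. PTPRC, CD3E, PECAM1, ALB, COL1A2 and TYR, markers of other cell types, had sums between 1 and 23. Replicates of 1 group differed by more than sampling noise, and polysome replicates more so than total RNA replicates (chi-square per degree of freedom 13.9 to 75.4 against 3.24 to 8.63).

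In shCtrl cells, most LINC-named RNAs had a polysome-to-total ratio above 0 on the TMM scale. The median log2 polysome-to-total ratio was 1.12 over the members and -0.22 over all genes tested, and 201 of the 284 members had a ratio above 0. By edgeR's test, 148 members (52.1%) were higher in polysome RNA and 45 (15.8%) were lower, while of all genes tested 32.5% were higher and 39.8% lower. With counts scaled by library totals alone, the ratio of all genes moved by a median of -1.0, 93 members were higher and 80 lower, and the member median was 0.12, with 150 members above 0 (all genes -1.22), so 1.34 above all genes as against 1.35 with TMM. The share of all genes called with this scaling was not counted. The 100 most abundant genes took 32.9% to 43.7% of polysome counts and 18.5% to 19.4% of total RNA counts. Their part in the effect of scaling was not tested. On the scale of library totals the members summed to 1404 to 1525 CPM in shCtrl total RNA and to 1396 to 1423 CPM in shCtrl polysome RNA, ranges that overlap. A low ratio does not tell nuclear RNA from cytoplasmic RNA with few or no ribosomes, because total RNA was extracted from cells lysed directly, whereas nuclei were removed before the gradient. Nor can fewer cells with an RNA and less RNA per cell be told apart in bulk samples.

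In shPRRC2B cells the shift was larger. The member median was 1.97 (all genes -0.22), 194 members (68.3%) were higher in polysome RNA and 38 (13.4%) were lower, against 36.6% and 42.3% of all genes. Scaled by library totals, the median was 1.04, with 142 members higher and 54 lower, again without a count over all genes. Taken by replicate number, the member medians were 1.21, 1.06 and 1.10 in shCtrl cells (SD 0.077) and 1.78, 1.86 and 2.02 in shPRRC2B cells (SD 0.12), so the lowest shPRRC2B value lay above the highest shCtrl value. Both lines called 141 members higher (49.6%, against 29.7% of all genes tested) and 31 lower (10.9% against 35.5%). A further 51 members were higher in shPRRC2B cells without a call in shCtrl cells (18.0% against 6.72%), 7 were higher in shCtrl cells with no call in shPRRC2B cells (2.46% against 2.74%), and LINC02575 and LINC02814 were lower in shCtrl and higher in shPRRC2B cells.

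**Figure D1:**
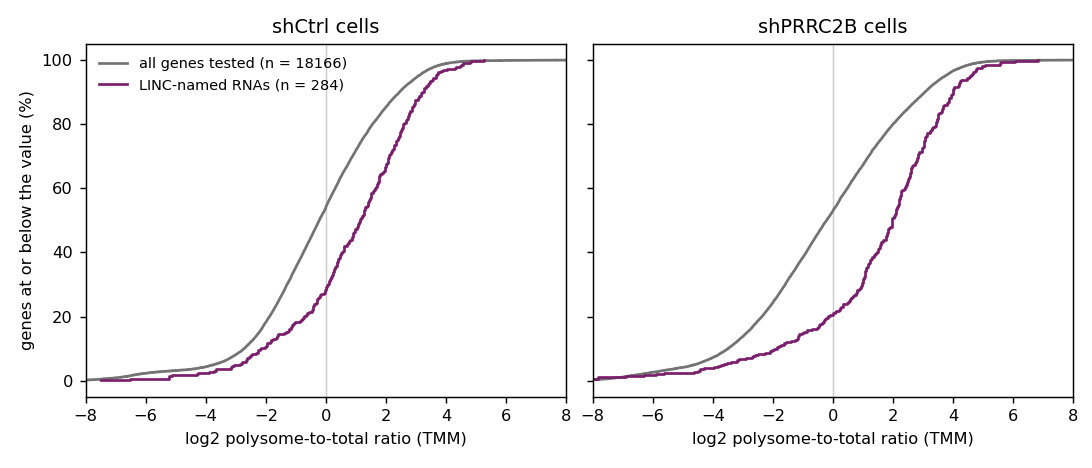
Cumulative share of genes (%, vertical axis) by the fitted log2 polysome-to-total ratio (horizontal axis, TMM scaling) in shCtrl cells (left) and shPRRC2B cells (right), for the 284 LINC-named RNAs and all 18166 genes tested. The curve of the members lies to the right of that of all genes, with medians of 1.12 against -0.22 in shCtrl and 1.97 against -0.22 in shPRRC2B cells; both member medians remain above 0 (0.12 and 1.04) with scaling by library totals.

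Transcript length moved with the ratio. Over all genes tested, the median log2 ratio in shCtrl cells was 2.34 for canonical transcripts of 501 to 1000 nt and -1.37 for those over 4000 nt. Members of 501 to 1000 nt had a median of 2.40 (65 members), those of 1001 to 2000 nt 0.85 (98 members, all genes 1.22), those of 2001 to 4000 nt 0.90 (78 members, all genes -0.08) and those over 4000 nt -1.17 (18 members). The 23 members of up to 500 nt had a median of 0.58, below the 1.88 of all genes of that length. In shPRRC2B cells the medians from the shortest to the longest class were 1.19, 3.33, 1.76, 2.01 and -0.11 for the members and 2.49, 2.93, 1.48, -0.13 and -1.89 for all genes. Across 282 members, Pearson's r between the ratio and log10 length was -0.20 in shCtrl and -0.21 in shPRRC2B cells, a description over transcripts that share the same libraries. After the trend of counts on length was removed from each library, the member medians were 0.26 and 0.66. Then 87 members were higher and 79 lower in shCtrl cells, and 119 higher and 68 lower in shPRRC2B cells. The shares of all genes called were not counted with the trend removed, so these counts have no background beside them.

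**Figure D2:**
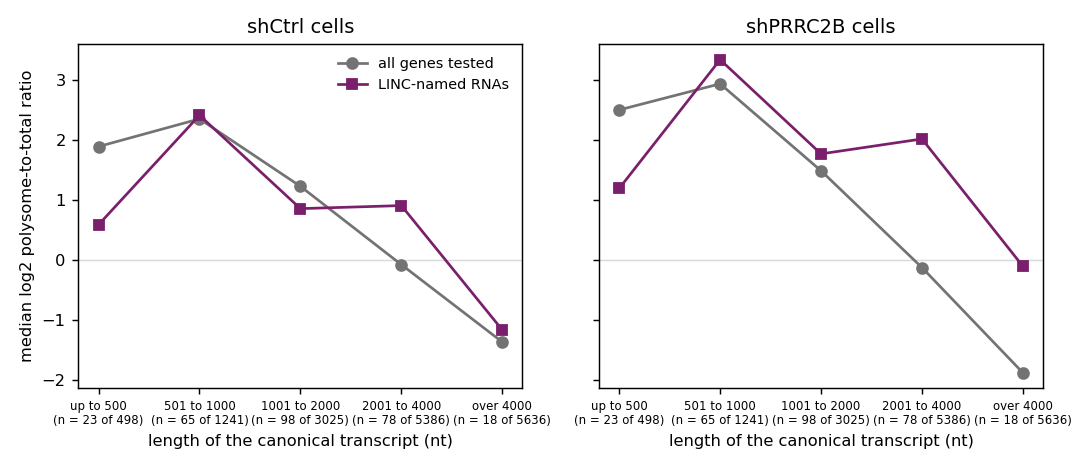
Median log2 polysome-to-total ratio (vertical axis) of LINC-named RNAs and of all genes tested in 5 classes of canonical transcript length (horizontal axis, nt), in shCtrl cells (left) and shPRRC2B cells (right), with the numbers of members and of all genes under each class. Both lines are lower in the class over 4000 nt than in that of 501 to 1000 nt, though the line of the members is slightly higher at 2001 to 4000 nt than at 1001 to 2000 nt (0.90 and 0.85 in shCtrl cells), and the members lie above all genes from 2001 to 4000 nt (0.90 against -0.08 in shCtrl cells).

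Members that were higher in both lines and members that were lower in both differed in structure. The 141 higher members had a median length of 1482 nt, and 6 had a single exon. The 31 lower ones had a median of 2518 nt, and 8 had a single exon. The longest ORF had a median of 71 codons in the higher and 98 codons in the lower members, and reached 100 codons in 35 and 15 of them. Members with a longest ORF of 100 codons or more had a median ratio of 0.91 in shCtrl cells (83 members), and those under 50 codons 1.28 (66 members). The median transcript lengths of these classes were 2245 and 665.5 nt, so ORF length cannot be told apart from transcript length here. GC content was close in both classes (medians of 47.9% and 48.7%). These features were compared without a test.

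The 10 members with the highest mean level held both kinds of RNA. LINC01605 (chromosome 8, 37421341 to 37554183, minus strand) had 24.4, 25.1 and 24.0 CPM in shCtrl total RNA and 24.3, 24.5 and 23.8 CPM in shPRRC2B total RNA. Its polysome levels were 133, 135 and 166 CPM in shCtrl and 269, 354 and 374 CPM in shPRRC2B cells. The total RNA levels of the lines overlapped, whereas all 3 shPRRC2B polysome values lay above those of shCtrl. Its polysome-to-total ratio was 2.56 in shCtrl and 3.78 in shPRRC2B cells on the log2 scale, so its TE changed by 1.22 (standard error 0.19, adjusted p = 2.45e-04, edgeR). TE (translation efficiency) is the study's term for the polysome-to-total ratio, and the TE change is the shPRRC2B ratio minus the shCtrl ratio in log2. LINC02381 (chromosome 12, 54126019 to 54147485, plus strand), whose exons overlap another gene by 24.0%, had 35.9 ± 1.71 and 148 ± 10.2 CPM in shCtrl total and polysome RNA, and 40.9 ± 1.96 and 288 ± 41.6 CPM in those of shPRRC2B cells (SD, n = 3 each). Its TE change was 0.77 (standard error 0.17, adjusted p = 0.00347, edgeR). Together LINC01605 and LINC02381 gave 271 to 321 of the 1919 to 2051 CPM of all members in shCtrl polysome RNA and 534 to 710 of 2897 to 3461 CPM in shPRRC2B polysome RNA. Without them the sums were 1635 to 1729 and 2364 to 2751 CPM, so the sum over the other 282 members was also higher in every shPRRC2B polysome library.

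Among the other abundant members, LINC01184, LINC00467, LINC00665, LINC02609 and LINC00662 were higher in polysome RNA in both lines, with log2 ratios of 1.99 to 2.87 in shCtrl cells. LINC01184, whose ORF is printed above, starts 594 bp from SLC12A2, a sodium, potassium and chloride cotransporter gene. It had 13.7 ± 1.45 CPM in shCtrl total RNA and 71.8 ± 4.35 CPM in shCtrl polysome RNA (SD, n = 3), a log2 ratio of 2.39 (adjusted p = 3.75e-11, edgeR), while SLC12A2 had a ratio of -1.97. LINC02609 (chromosome 1, 90769086 to 90851671) had 11.7 ± 0.903 and 67.2 ± 1.41 CPM in shCtrl total and polysome RNA. Its total RNA was lower in shPRRC2B cells by a log2 difference of -1.06 (adjusted p = 5.99e-04, edgeR). LINC00665, which is known to hold a translated short ORF, rose in shPRRC2B cells in both fractions, from 5.62, 3.94 and 4.01 to 24.0, 25.7 and 26.6 CPM in total RNA and from 24.9, 15.2 and 14.2 to 111, 78.9 and 76.8 CPM in polysome RNA. Neither fraction overlapped between the lines, and its TE change was -0.19 (adjusted p = 0.672, edgeR). LINC00205 and LINC02693, in contrast, were lower in polysome RNA in both lines, with shCtrl ratios of -1.63 and -1.59. LINC00205 (7553 nt) had 57.2, 59.4 and 57.4 CPM in shCtrl total RNA against 19.3, 18.9 and 18.0 CPM in polysome RNA. LINC01003 (chromosome 7, 152463786 to 152465549) had a shCtrl ratio of 0.75, which was -0.24 and no longer called with scaling by library totals, and a shPRRC2B ratio of 3.04.

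Levels of different genes were also compared per length. Reads were counted over all exons of a gene name, while the length is that of the canonical transcript alone (733 nt for LINC01605). The order thus depends on which transcript is canonical. By mean CPM over the 12 libraries per kilobase of canonical transcript, LINC01605 came first with 179, followed by LINC00674 with 72.9, LINC02381 with 45.9, LINC01315 with 44.4 and LINC00665 with 35. LINC00674 is a pseudogene whose exons overlap another gene by 97.5% (160 nt), so its counts are uncertain. It, LINC01315 and LINC02593 were named after their values had been seen. The order differed between the fractions. In shCtrl total RNA, LINC02693 had 44.2 CPM per kilobase, LINC00674 37.4, LINC01605 33.4, LINC00342 29.8 and LINC02593 25.3, while LINC02381 had 12.8 and LINC00665 4.64.

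**Figure D3:**
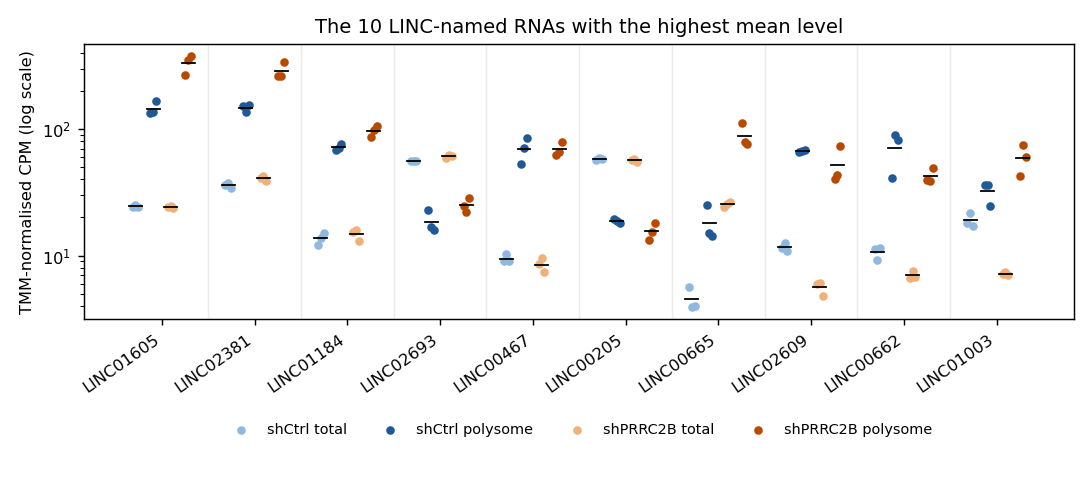
TMM-normalised CPM (vertical axis, log scale) of the 10 LINC-named RNAs with the highest mean level, with a point per library, coloured by line and fraction, and a bar at the mean of 3 replicates. LINC01605 lies at 23.8 to 25.1 CPM in all 6 total RNA libraries and at 133 to 374 CPM in polysome RNA, whereas LINC00205 and LINC02693 are higher in total than in polysome RNA.

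The members with the highest polysome-to-total ratios had few reads in total RNA. LINC02704 (chromosome 11, 44694863 to 44696301) had 1, 2 and 0 counts in shCtrl total RNA and 14, 13 and 14 in shCtrl polysome RNA, and its pooled CPM was 32.3-fold higher in polysome RNA (exact 95% counting interval 10.3 to 163). In shPRRC2B cells it had 2, 0 and 0 counts in total and 45, 49 and 37 in polysome RNA, 145-fold higher (39.4 to 1211). The intervals cover counting error only. LINC01426 had 0, 3 and 0 counts in shCtrl total RNA and 18, 16 and 7 in shCtrl polysome RNA, also 32.3-fold higher (10.3 to 163). The fitted ratios of LINC00920, LINC01389 and LINC02562 were 4.57, 4.50 and 4.45 in shCtrl cells. LINC01389 (483 nt) had 7.21, 7.05 and 7.54 CPM in shCtrl polysome RNA and 0.302, 0.438 and 0.138 CPM in total RNA. In shPRRC2B cells, LINC00475, LINC01297, LINC02154 and LINC01625 had fitted ratios of 6.04, 5.60, 5.55 and 5.05 (adjusted p at most 4.46e-06, edgeR). LINC00475 is a pseudogene in GENCODE 44 whose exon lies wholly within an exon of another gene, so its counts are uncertain. LINC02154 (chromosome X, 13266041 to 13303452) had 0.607, 0.537 and 0.743 CPM in shPRRC2B total and 21.3, 30.1 and 37.3 CPM in shPRRC2B polysome RNA.

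At the other end, some members were abundant in total RNA and near 0 in polysome RNA. LINC00342 (chromosome 2, 95807052 to 95835003, minus strand) had 725, 566 and 441 counts in shCtrl total RNA and 14, 6 and 0 in shCtrl polysome RNA. In shPRRC2B cells it had 605, 854 and 693 counts in total and 0, 0 and 4 in polysome RNA. Its fitted log2 ratio was -5.23 in shCtrl cells (standard error 0.43, adjusted p = 3.86e-09, edgeR), and was between -6.31 and -4.71 with each library left out in turn. The shPRRC2B ratio was fitted at -7.83, and at -12.00 without polysome replicate 3, the only one with counts. LINC00641 (chromosome 14, 21200079 to 21206900, minus strand) had 25, 19.8 and 27.2 CPM in shCtrl total and 1.97, 3.26 and 0.444 CPM in shCtrl polysome RNA, a ratio of -3.65 (adjusted p = 2.2e-08, edgeR). In shPRRC2B cells its total RNA was 35.5, 34.2 and 36.6 CPM and its polysome RNA 0.43, 1.05 and 0.285 CPM. LINC00894 and LINC00893 are divergent partners of EOLA2 and EOLA1 on chromosome X, starting 87 and 604 bp from them. LINC00894 had a shCtrl ratio of -4.28 (-5.81 without polysome replicate 3 and -3.73 without polysome replicate 1, with 1, 6 and 22 polysome counts), while EOLA2 had 2.22, and LINC00893, whose exons overlap other genes by 57.0%, had -3.73 against 0.47 for EOLA1. LINC00893 had polysome counts in 1 replicate of each line only, and its fitted shCtrl ratio was -8.65 without that replicate (shCtrl polysome replicate 1). Over 30 member and partner pairs that were tested, the median shCtrl ratio was 0.96 for the members and -0.78 for the partners.

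Genes with known behaviour were read beside the members. Of the genes that lost a LINC symbol when a small protein was found, NBDY (a decapping complex factor), MTLN (a mitochondrial membrane peptide), SMIM30, SMIM26 and BRD3OS were higher in polysome RNA in both lines. Their log2 ratios in shCtrl cells were 3.8, 3.88, 3.68, 3.88 and 1.27, and MTLN and SMIM26 were TE-up (0.82 and 0.76). SPAAR and MRLN had 8 and 3 counts and were not tested. LINC00467, which encodes a mitochondrial micropeptide, had 9.06, 10.2 and 9.12 CPM in shCtrl total RNA and 52.6, 70.3 and 84.9 CPM in shCtrl polysome RNA, a ratio of 2.87. LINC01116 was higher in polysome RNA in both lines (2.16 and 2.62), as was LINC00667 (1.36 and 2.95, the first not called with scaling by library totals), whose exons overlap another gene by 21.9%. LINC00511 was called higher in both as well (1.25 and 0.92), but by neither under scaling by library totals (0.26 and -0.02). LINC00632, the host of the circular RNA CDR1as and the longest member with 21234 nt, had -1.03 in shCtrl cells (adjusted p = 2.54e-04, edgeR). Among lncRNAs known from the nucleus, NEAT1, KCNQ1OT1 and FTX were lower in polysome RNA in both lines (-2.46, -3.28 and -2.35 in shCtrl cells), and PVT1 was higher in both (1.52 in shCtrl cells). FIRRE, which was TE-up (0.80), had 0.03, MIAT -3.17 (called lower) and MALAT1 0.79 in shCtrl cells, and MALAT1 was -2.42 in shPRRC2B cells with a TE change of -3.21. MEG3 had 0 counts. Of the lncRNAs known from the cytoplasm, DANCR and CYTOR were higher in polysome RNA in both lines (2.85 and 2.15 in shCtrl cells) and TE-up, whereas NORAD, a binder of Pumilio proteins, and OIP5-AS1 were lower (-2.02 and -0.98). Of the LINC RNAs on the PAR-CLIP lists of the study, LINC01376, LINC01962 and LINC01411 were members, with TE changes of -0.61, 1.00 and 0.21 (adjusted p = 0.57, 0.315 and 0.849, edgeR).

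The TE change of the members between the lines had a median of 0.63, against -0.03 over all genes tested, and 221 of 284 values were above 0. By edgeR, 44 members (15.5%) were TE-up and 9 (3.17%) TE-down, while 10.7% of all genes were TE-up and 16.4% TE-down. By replicate number the member medians were 0.50, 0.67 and 0.74 (SD 0.12). The median was 0.60 when members with 1 group at 0 were set to a bound where the counts gave one. Members without such a bound were left out, as were 3 members with 0 counts in both shCtrl fractions. The counts depended on single libraries. Only 25 to 29 members were TE-up when 1 of these libraries was left out: shCtrl total replicate 1 (27) or 2 (25), polysome replicate 2 of shCtrl (28), total replicate 1 (28), 2 (26) or 3 (29) of shPRRC2B, and its polysome replicates 2 (29) and 3 (28). Between 3 and 5 were TE-down when any 1 total RNA library, or polysome replicate 2 of shCtrl, was left out. After removal of the length trend the median was 0.40 and 25 members were TE-up. Shares of all genes called were not counted in these runs, so a loss of calls over all genes cannot be told apart.

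**Figure D4:**
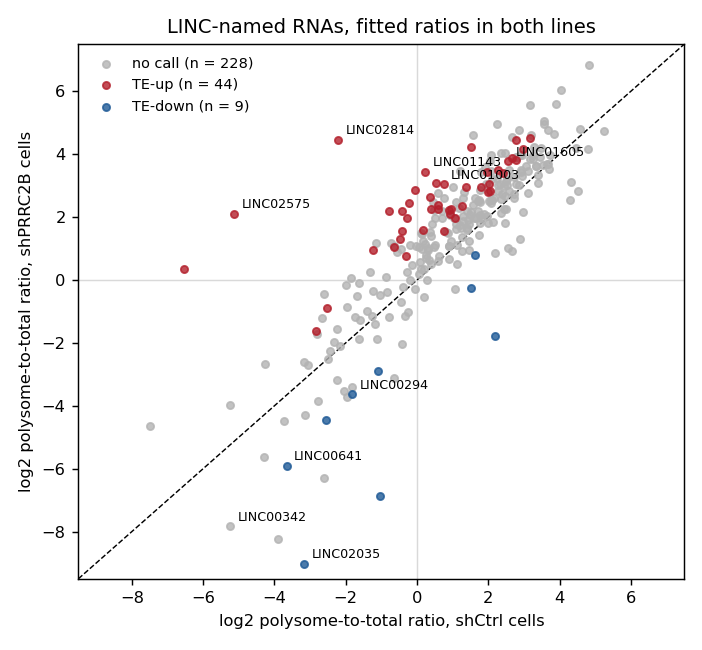
Fitted log2 polysome-to-total ratio of each LINC-named RNA in shCtrl cells (horizontal axis) and shPRRC2B cells (vertical axis), with the dashed line of equal ratios; 3 members at 0 counts in both shCtrl fractions are left out. The 44 TE-up members lie above the line and the 9 TE-down members below it, and LINC02575 and LINC02814 lie below 0 in shCtrl and above 0 in shPRRC2B cells. Positions near either end rest on few counts in 1 fraction.

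The largest rises of the ratio were those of members with few counts in 1 group. LINC02575 (chromosome 21, 44485463 to 44495519) had 5, 12 and 1 counts in shCtrl total RNA and 0 in each shCtrl polysome library, and in shPRRC2B cells 20, 20 and 17 in total and 49, 36 and 28 in polysome RNA. Against a floor of 3 counts over the shCtrl polysome group, its shCtrl polysome level was at least 2.54-fold below total RNA, and its ratio was at least 11.1-fold higher in shPRRC2B cells. LINC02814 (chromosome 1, 229087114 to 229205428) had 80, 76 and 49 counts in shCtrl total RNA and 0, 0 and 1 in shPRRC2B total RNA, while its polysome counts were 8, 6 and 5 and then 5, 7 and 3. So its ratio differed through total RNA, which was 217-fold lower (exact 95% counting interval 38.5 to 8601). LINC01143 (chromosome 2, 70887871 to 70889959) rose in polysome RNA from 0.187, 0.326 and 0.222 to 4.56, 3.63 and 5.71 CPM, with total RNA of 0.264, 0.146 and 0.207 and then 0.467, 0.322 and 0.481 CPM. Its TE change was 3.21 (standard error 0.77, adjusted p = 0.00519, edgeR). LINC00672, listed as protein-coding in GENCODE 44, rose in polysome RNA from 0.656, 0.434 and 0.111 to 2.84, 3.15 and 4.0 CPM, and its TE changed by 2.92 (standard error 0.81; edgeR, adjusted p = 0.0133). LINC01023 (chromosome 5, 108725707 to 108728322) fell in total RNA from 2.38, 2.67 and 2.90 to 0.887, 0.572 and 0.962 CPM and rose in polysome RNA from 9.83, 4.88 and 7.65 to 10.6, 16.6 and 18.3 CPM, and its TE changed by 2.73 (standard error 0.43; edgeR, adjusted p = 2.49e-04). LINC01003 moved in the same way, with total RNA of 18.1, 21.9 and 17.2 and then 7.09, 7.37 and 7.04 CPM and polysome RNA of 36.3, 35.8 and 24.5 and then 42.7, 75 and 59.9 CPM. Its TE change was 2.29 (standard error 0.28, adjusted p = 3.59e-05, edgeR).

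Among the TE-down members, LINC02035 (chromosome 3, 122886941 to 122892416) had 226, 238 and 121 counts in shCtrl and 77, 136 and 70 in shPRRC2B total RNA. In polysome RNA it had 4, 14 and 9 counts in shCtrl and 0 in each shPRRC2B library. Against a floor of 3 counts over the group, shPRRC2B cells thus held at least 10.2-fold less of it in polysome RNA, and its ratio was at least 4.65-fold lower. LINC00294 (chromosome 11, 33076149 to 33079454), whose exons overlap other genes by 17.4%, had 5.43, 6.73 and 4.10 CPM in shCtrl polysome RNA and 1.63, 2.01 and 2.00 CPM in shPRRC2B polysome RNA. Its total RNA was 18.9, 19.8 and 18.6 and then 23.6, 25.1 and 21.4 CPM, and its TE change -1.82 (standard error 0.28, adjusted p = 2.28e-04, edgeR). LINC00641 changed by -2.26 (adjusted p = 0.00962, edgeR), though its ratios by replicate number overlapped between the lines. LINC02604, LINC00638 and LINC01588 were TE-down with adjusted p of 0.0491, 0.0386 and 0.0407 (edgeR). These calls did not hold under single changes of the analysis, among them leaving out shCtrl total replicate 1, with adjusted p of 0.0749, 0.0817 and 0.0990 (edgeR). With each of the 12 libraries left out in turn, the calls of LINC02604, LINC00638 and LINC01588 held in 2, 3 and 4 runs. The value of LINC02604 was -1.88. It was -3.13 without shPRRC2B polysome replicate 3 and -1.32 without shPRRC2B polysome replicate 1. Of the TE-up and TE-down members named, all but LINC00641 had ratios that did not overlap between the lines. For members named by their TE change the naming rule required this, so it is no separate support. The ratios of LINC02604 were barely apart (lowest shCtrl value -3.66, highest shPRRC2B value -3.68).

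In total RNA, 36 members were higher and 54 lower in shPRRC2B cells (12.7% and 19%), against 14.9% and 14.1% of all genes tested, with a member median of -0.15 and 0.04 over all genes. The number lower was 35 without shPRRC2B total replicate 2. In polysome RNA, 87 were higher and 23 lower (30.6% and 8.10%), against 18.4% and 21.4% of all genes, with medians of 0.41 and -0.01. The member median was 0.20 without shPRRC2B polysome replicate 3, when 72 members were higher, and 0.24 with the length trend removed. The counts without a library have no shares of all genes beside them. Both comparisons share their libraries with the TE change, so the 3 sets of counts are not separate evidence.

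Some members were found in 1 line only. LINC02864 (chromosome 18, 73151241 to 73264480, minus strand) had 0 counts in all 6 shCtrl libraries. In shPRRC2B cells it had 245, 335 and 276 counts in total RNA and 519, 345 and 466 in polysome RNA. Against a floor of 3 counts over each shCtrl group it was at least 269.9-fold higher in total RNA and at least 393-fold higher in polysome RNA. LINC00355 (chromosome 13) had 0 counts in the shCtrl libraries and 45, 67 and 52 in shPRRC2B total and 114, 94 and 113 in shPRRC2B polysome RNA, at least 51.7-fold and 94.9-fold higher. LINC00668 (chromosome 18, 6919496 to 6929966, minus strand) had 0 in shCtrl libraries and 33, 44 and 35 in total and 57, 40 and 26 in polysome RNA of shPRRC2B cells, at least 35.3-fold and 36.3-fold higher. Of 3 tested neighbours of LINC00668, 2 were also called higher in shPRRC2B total RNA, among them LAMA1, a laminin subunit gene, by a log2 difference of 0.63 (adjusted p = 0.00306, edgeR). Neighbours of LINC02575, LINC02562 and LINC02814 did not follow them. Beside LINC02575, whose total RNA difference was 1.63, 4 of 7 were called lower. The neighbour PARM1 of LINC02562 had -0.49 (adjusted p = 0.0907, edgeR), and the 4 neighbours of LINC02814 had -0.07 to 0.16. Beside LINC02851, which was lower in shPRRC2B total RNA, all 6 had negative differences, and 1 was called lower. Neighbours of LINC00882, LINC00174 and LINC02604, which also went the way of these members, are given below. Among tested neighbours of other named members, 1 of 2 was called lower beside LINC00870, 1 of 4 beside LINC02035 and 0 of 7 beside LINC00997. The neighbour of LINC02154 had 0.29 and was not called. Over all genes tested, 14.9% were called higher and 14.1% lower in total RNA. LINC02562 had 1, 0 and 1 counts in shCtrl total RNA and 28, 17 and 17 in shPRRC2B total RNA, 29.3-fold higher (exact 95% counting interval 7.78 to 248), and went from 0.656, 0.977 and 0.776 to 16.2, 16.8 and 15.5 CPM in polysome RNA. LINC02154 went from 0.749, 0.326 and 0.666 to 21.3, 30.1 and 37.3 CPM in polysome RNA, a log2 difference of 5.64 (standard error 0.34, adjusted p = 3.64e-09, edgeR).

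In the other direction, LINC01446 (chromosome 7, 53655508 to 53811952) had 125, 90 and 74 counts in shCtrl and 0, 3 and 0 in shPRRC2B total RNA, 101.8-fold lower (exact 95% counting interval 34.5 to 497). Its polysome counts were 69, 69 and 67 in shCtrl and 0, 5 and 2 in shPRRC2B cells. LINC00882 and LINC00870 on chromosome 3 had total RNA differences of -2.64 and -2.65 (adjusted p = 3.06e-04 and 0.00218, edgeR). LINC00882 fell from 0.981, 0.803 and 0.898 to 0.14, 0.215 and 0.0437 CPM in total RNA and from 6.74, 6.08 and 5.77 to 3.10, 3.34 and 3.04 CPM in polysome RNA. Its neighbour DUBR, a lncRNA gene whose body it overlaps, changed by -1.63 in total RNA (adjusted p = 2.18e-05, edgeR). LINC02851 had a total RNA difference of -2.75 (adjusted p = 0.0162, edgeR), which was not called without shCtrl total replicate 1 or 2 or shPRRC2B total replicate 2 or 3 (adjusted p = 0.0584 to 0.0889).

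**Figure D5:**
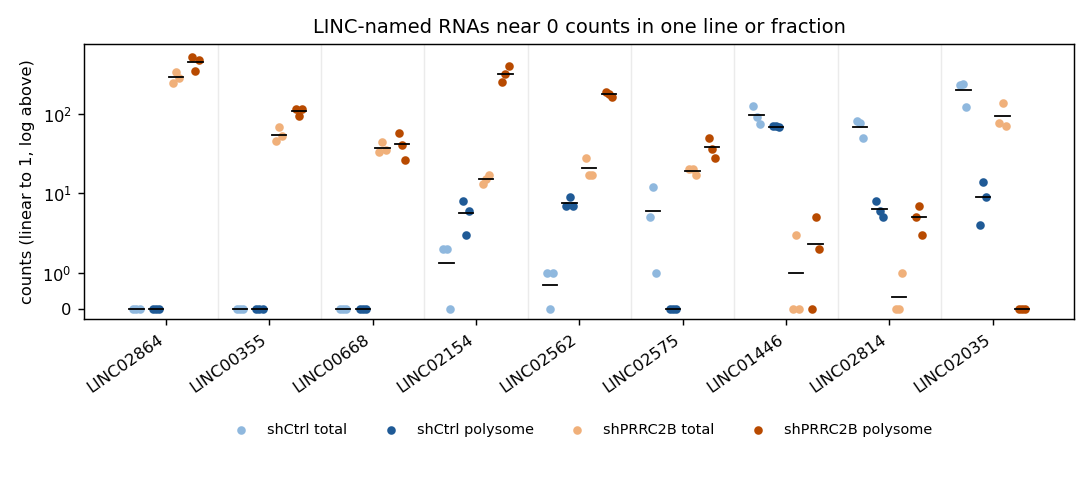
Raw counts per library (vertical axis, linear up to 1 and logarithmic above) of 9 LINC-named RNAs near 0 in 1 line or fraction, with points coloured by line and fraction and a bar at the mean of 3 replicates. LINC02864, LINC00355 and LINC00668 are at 0 in all 6 shCtrl libraries, LINC02575 is at 0 in shCtrl polysome RNA, and LINC02035 is at 0 in shPRRC2B polysome RNA.

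LINC00174 and LINC02604 lie within 1 region of chromosome 7. LINC02604 (66902857 to 66906297, plus strand) had 21.9, 20.8 and 18.9 CPM in shCtrl and 8.54, 7.30 and 12.8 CPM in shPRRC2B total RNA, and 1.69, 4.56 and 4.33 against 0, 0.382 and 0.951 CPM in polysome RNA. LINC00174 (66376044 to 66493566, minus strand) had 23.8, 21.8 and 20.2 CPM in shCtrl and 11.7, 11.4 and 11.4 CPM in shPRRC2B total RNA, and its polysome RNA went from 1.5, 2.5 and 5.66 to 0.774, 1.15 and 0.476 CPM. No value overlapped between the lines in either fraction, which the naming rule required of both members in polysome RNA. All 10 neighbouring genes that were tested had a negative total RNA difference, with a median of -0.75. Against 14.1% of all genes tested, 8 of the 10 were called lower. Among these were TMEM248, which fell from 89.3 to 51.5 CPM, RABGEF1, a RAB5 exchange factor gene, from 8.28 to 2.01 CPM, and KCTD7 from 29.1 to 17.9 CPM. The neighbours were looked at after the values of both members had been seen. LINC00997, elsewhere on chromosome 7 (32760279 to 32762924), had a polysome RNA difference of -2.70 (adjusted p = 0.00488, edgeR), while its total RNA difference of -0.92 missed the threshold (adjusted p = 0.0645, edgeR).

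The values varied with the number of reads, without a test. With the members split into 4 groups of 70 to 72 by their summed counts, the median shCtrl ratio was 1.02, 1.11, 1.08 and 1.26 from the lowest to the highest group, the median shPRRC2B ratio 1.5, 1.99, 2.25 and 1.86, and the median TE change 0.61, 0.94, 0.72 and 0.51. The number of TE-up members was 3, 8, 14 and 19 in the same order, so most calls lay among members with more reads. Among the 161 members with at least 300 counts, 93 were higher and 31 lower in shCtrl polysome RNA, 35 were TE-up and 6 TE-down. The 20 members that overlapped the body of a protein-coding gene on the same strand had a median shCtrl ratio of -0.15. The median was 1.20 for the 28 that overlapped one on the opposite strand alone and 1.24 for the 234 others. Members with 1 exon had a median shCtrl ratio of -0.41 (23 members), and those with 4 exons 2.25 (47 members). The median was 1.25 with 2 exons (53 members), 1.30 with 3 (70 members) and 0.71 with 5 or more (89 members). In shPRRC2B cells the medians from 1 exon to 5 or more were 1.30, 2.20, 2.16, 2.67 and 1.17. No test was made of these differences.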

How the data were processed

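Total and polysome-associated RNA of 2 HEK293T lines was sequenced in 12 libraries, 3 per line and fraction. The authors deposited raw counts of read pairs for each gene name in each library, not normalized. Per the methods and processing notes, reads were demultiplexed with bcl2fastq 2.19.0, trimmed with Trimmomatic 0.36, mapped to GRCh38 with HISAT2 and counted with featureCounts (Subread 2.0.1) on the names of GENCODE 38, from poly(A)-enriched RNA. Names shared by several genes form 1 row, pairs with several places were not counted, and no strand option is stated. 0 columns belonged to no sample.

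Tests used edgeR 4.0.16 in R 4.3.3: filterByExpr with the 4 groups and a minimum count of 10, TMM over 12 libraries, glmQLFit and glmQLFTest without a block, and Benjamini-Hochberg adjustment over all genes tested. A single fit gave 5 contrasts. Ratios by replicate number used a prior count of 0.5. Alternatives were DESeq2 1.42.0, its size factors (RLE), scaling by library totals, TMM within fractions, 2 other filters, blocks for the replicate number, removal of the length trend (lowess span 0.3), no minimum log2 change, a sum of 300 counts, and each library left out. The pipeline was tested on simulated data. Bounds for groups at 0 use 3 counts over the group, and intervals cover counting error only, since PCR reads without molecular identifiers are not independent molecules.

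The named members were, per contrast, the 5 highest and 5 lowest called values among members averaging 1 CPM or more whose replicates do not overlap between groups, the 10 members with the highest mean level, listed members and those nearest the sum of 100. Features, neighbours and promoters were added after values had been seen. The members and lists were chosen with earlier results of these data known. Sequences are from GENCODE 44 and RefSeq (GRCh38.p14).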

Additional observations from a re-analysis of the deposited data

Results flagged for a closer look

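The values below met a rule for a closer look because the polysome-to-total ratio of a named member differed between the lines in the test of that difference (the TE change, edgeR). Over all 284 members this test called 15.5% TE-up and 3.17% TE-down, against 10.7% and 16.4% of all genes tested. Of 49 named members, 17 met the rule. Some of these 17 were named because they were called in this same test, so the count does not measure how often members differ. Fitted log2 TE changes above 0 were 7.23 for LINC02575 and 6.66 for LINC02814, whose ratios had opposite signs in the lines, 3.21 for LINC01143, 2.92 for LINC00672, 2.73 for LINC01023, 2.29 for LINC01003, 2.27 for LINC00870, 1.67 for LINC00882, 1.58 for LINC00667, 1.22 for LINC01605 and 0.77 for LINC02381. Those below 0 were -1.78 for LINC01588, -1.81 for LINC00638, -1.82 for LINC00294, -1.88 for LINC02604, -2.26 for LINC00641 and -5.86 for LINC02035. The fitted values of LINC02575 and LINC02035, each with a group at 0, depend on the model and are no sizes. Groups of 3 libraries are too small for a test of single outlying samples.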

How the results depend on the processing

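None of the 50 named results and no member median changed sign under an alternative, but scaling by total counts turned the sign of 51 members' shCtrl ratios (10 of them called) and of 24 shPRRC2B ratios (5 called). Scaling by total counts moved the member medians of the polysome-to-total ratio to 0.12 (shCtrl, 93 higher, 80 lower) and 1.04 (shPRRC2B) and that of the total RNA difference to -0.22. Removal of the length trend gave medians of 0.26 and 0.66 for the ratios (0.28 and 0.73 above all genes), 0.40 for the TE change and 0.24 for polysome RNA. It left 87 members higher and 79 lower in shCtrl, 119 and 68 in shPRRC2B cells and 25 TE-up. With the replicate block as well, these were 0.27 and 0.64 (0.31 and 0.71 above all genes), 0.45 for the TE change, 85 and 78, 118 and 69, and 23 TE-up. A filter of 10 counts in every library left 95 members, with ratio medians of 1.22 and 2.14, 65 higher and 8 lower in shCtrl, 80 and 7 in shPRRC2B cells, 12 higher and 25 lower in total RNA, 37 and 5 in polysome RNA, and 2 TE-down. Testing every gene with at least 1 count gave ratio medians of 0.99 (1.54 above all genes) and 1.80. With a sum of 300 counts, 93 and 117 members were higher in polysome RNA of shCtrl and shPRRC2B cells and 52 between the lines.

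Same-numbered libraries of 1 line had correlations of their deviations of 0.010 to 0.080, so the numbers were not taken as pairs in the main tests. Ratios and medians given by replicate number, their SDs and their overlaps thus rest on a matching by number alone. With the replicate block 4 members were TE-down, and with the replicate block within each line 29 were TE-up and 5 TE-down. LINC00672 was then not called (adjusted p = 0.0553, edgeR).

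With each library left out in turn, TE-up members numbered 25 to 50 and TE-down members 3 to 11, those lower in total RNA 35 to 63, and the medians ran from 0.99 to 1.17 in shCtrl (1.26 to 1.41 above all genes), from 1.85 to 1.98 in shPRRC2B cells and from 0.20 to 0.41 in polysome RNA between the lines. Of 50 named results, 45 kept their call in each alternative run for them. The others were LINC02604, LINC00638, LINC01588, LINC00672 and LINC02851. The causes were not tested, apart from fewer members under the stricter filters. Shares of all genes called were not counted under the alternatives. Depth limits the values of members with a group near 0 counts.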
